A study of Sus scrofa with 14 samples.

Results

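A set of 84 genes, of the 19588 in the table, had a mean normalized count of at least 40 in both pESCLC-primary and pESCLC-F and a mean below 15 in each of the 5 other groups of the series. The genes were chosen by these mean normalized counts, so the contrast between the 2 high groups and the other 5 is given below as a description and was not tested. A normalized count is the number of reads on a gene divided by a size factor of the sample, and 66 of the 84 genes had a gene symbol. The set contained GATA4, FOXA2 and HNF4A, which encode transcription factors of the endoderm, and genes for proteins that endoderm secretes, among them TF, APOA2 and APOC3. Of the 84 genes, 7 were on a list of primitive and visceral endoderm markers. Genes known from other cell types, such as CDH5, KLF1 and TP63, also belonged to the set.

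RNA of 14 porcine samples was sequenced, 2 in each of 7 groups. pESCLC-primary were blastocyst outgrowths in a medium with FGF2, labelled F. The paper made outgrowths from whole blastocysts and from isolated inner cell mass, and does not say which were sequenced. pESCLC-F were embryonic stem cell-like cells kept in F, of which passage 2 of lines A1 and A2 was sampled. Both samples of pESCLC-FL6i came from line C2 at passages 3 and 9, from cells moved at day 8 into FL6i, which holds FGF2, LIF and inhibitors of p38, JNK, TGFB, MEK, GSK3 and BMP signalling. The pESCLC-FLB2i samples were line B1 at passages 3 and 6, from cells moved out of FL6i at day 18 into FLB2i, which holds LIF, FGF2, BMP4 and inhibitors of GSK3 and TGFB signalling. Lv-piPSC-F were induced pluripotent stem cells made with lentiviral vectors and also labelled as grown in F, with passage 46 given for the second sample, whose code differs from that of the first. Epi-piPSC came from fetal fibroblasts reprogrammed with episomal plasmids, as line B5 at passages 9 and 12 in FLB2i and lines C10 and C11 at passages 12 and 11 in FL6i. The letter F does not stand for 1 medium. The methods describe a serum-based medium with a higher dose of FGF2 for plated blastocysts. For routine maintenance of piPSC, Lv-piPSC among them, and of pESCLC, they list a serum replacement medium with a lower dose. The paper uses F for both the outgrowths and pESCLC-F, so which of these media held pESCLC-F is unclear. The part of a change of medium between these groups was not tested. The cells were grown on irradiated mouse embryonic fibroblasts. Where a group was 1 line at different passages, its samples show the spread between passages. The paper describes the duplicates of the lines as different passages, whereas the labels give passage 2 for both pESCLC-F samples. It counts 2 primary outgrowths, but neither the paper nor the labels state separate embryos. The p-values therefore measure the spread between these samples, which may be technical.

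Reads on genes ranged from 6193659 to 58878377 per sample, and the second pESCLC-FL6i sample was the shallowest. Of 15 pluripotency genes listed, 7 could be found by symbol, and POU5F1 and SOX2 were not among these. LIN28A, an RNA-binding protein of pluripotent cells, had 5185 and 5313 normalized counts in pESCLC-primary and 5798 and 4975 in pESCLC-F, but group means of 16.7 in pESCLC-FLB2i and 11.5 in pESCLC-FL6i, both labelled as embryonic stem cell-like. NANOG had means of 22.7 and 11.8 in the same lines. LIN28A and NANOG are only part of the 7 genes found. The 7 summed to 9340 and 10008 normalized counts for the outgrowths and 9672 and 9513 for pESCLC-F. These were not the highest sums of the series. Lv-piPSC-F had 46994 and 57371, Epi-piPSC-FL6i 31676.5 and 36806, and Epi-piPSC-FLB2i 5473 and 5024. The pESCLC-FL6i samples had sums of 1964 and 1920 and the pESCLC-FLB2i samples 2087 and 938, mostly from other genes of the list. By staining, the paper saw POU5F1, NANOG and SOX2 persist in both lines. Its RNA data showed POU5F1 and NANOG, but not SOX2, lower than in the outgrowths. The data hold no measure of the cell makeup of the cultures. Fewer cells of a type and less RNA of a gene per cell cannot be told apart in any of the values below.

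In the blastocyst, primitive endoderm forms next to the epiblast and gives rise to visceral and parietal endoderm, which line the yolk sac. GATA4 with GATA6 acts early in this lineage, FOXA2 opens chromatin at endoderm genes, and HNF4A is a nuclear receptor that drives genes for apolipoproteins and plasma proteins in visceral endoderm and later in liver, gut and kidney. In these tissues many of the same genes serve uptake and secretion: transferrin carries iron, apolipoproteins carry lipids, and solute carriers take up amino acids, phosphate and glucose.

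Of the 66 genes with a symbol, 60 were found once in the RefSeq annotation of Sscrofa11.1, the build to which the authors aligned, and all 60 were annotated as protein-coding. They lay on 18 chromosomes, with 8 on chromosome 6 and 7 on chromosome 14. RefSeq lists more than 1 gene under the symbols TF and C4BPA, so positions are not given for these, and reads of their near copies could not be separated from their own. Promoters are shown here for HNF4A, APOA2 and HABP2. HNF4A had the highest mean level in both groups, and APOA2 rose most in pESCLC-F among the positioned genes called. HABP2, a plasma serine protease gene, was taken because its window held 3 kinds of motif. Those of APOA2, ENPP3, KRT74 and NR5A2 also held 3 kinds, and those of A1CF and APOC3 held no marked motif. Each promoter is the 250 bases before the RefSeq gene start, 5′ to 3′ on the strand of the gene. Capitals mark, on either strand, GATAA as the core letters bound by GATA factors, CAAAGT as those of HNF4, GTTAAT as those of HNF1, TGTTTAC or its variant TGTTTGC as those of forkhead factors, and TATAAA as the TATA box. HNF4A lies at chr17:46783522-46783771 (plus strand), APOA2 at chr4:89237264-89237513 (plus) and HABP2 at chr14:123893740-123893989 (plus).
HNF4A: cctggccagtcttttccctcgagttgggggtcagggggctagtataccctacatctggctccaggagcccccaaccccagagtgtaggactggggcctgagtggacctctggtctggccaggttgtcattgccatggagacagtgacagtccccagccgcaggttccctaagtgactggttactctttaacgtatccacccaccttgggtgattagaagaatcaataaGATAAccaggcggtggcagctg
APOA2: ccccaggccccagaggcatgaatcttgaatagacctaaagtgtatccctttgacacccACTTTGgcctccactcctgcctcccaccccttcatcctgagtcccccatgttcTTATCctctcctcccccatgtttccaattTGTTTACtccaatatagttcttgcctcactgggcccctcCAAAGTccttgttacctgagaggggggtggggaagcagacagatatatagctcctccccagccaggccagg
HABP2: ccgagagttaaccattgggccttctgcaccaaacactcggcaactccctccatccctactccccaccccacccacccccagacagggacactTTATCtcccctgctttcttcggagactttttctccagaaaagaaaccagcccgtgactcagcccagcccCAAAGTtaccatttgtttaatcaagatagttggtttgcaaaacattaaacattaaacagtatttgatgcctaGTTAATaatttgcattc

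The HNF4A window held 1 marked motif, a GATAA whose first base lies 22 bases before the gene start. Each window lies before the outermost start of its gene, and starts of transcripts inside the gene were not searched. Sites that differ from the exact letters were not marked. The APOA2 window held CAAAGT once on each strand, 1 TGTTTAC and 1 GATAA. Over the 60 promoters, GTTAAT occurred in 10 (16.7%), beside 1153 of 19556 promoters of all protein-coding genes (5.9%). The 10 belonged to AGMAT, ANKS4B, CD69, HABP2, KRT74, NR5A2, SLC22A18, SLC26A4, SLC34A1 and SOWAHD. GATAA occurred in 25% of the set and 19.1% of all promoters, AGATAA, which contains GATAA, in 11.7% and 8.08%, CAAAGT in 13.3% and 10.1%, TGTTTAC in 5% and 2.28%, and TGTTTGC in 5% and 3.04%. The longer palindrome of HNF1, searched with any base at its centre, was in none of the 60 windows and in 0.123% of all. GGGCGG, the letters of the GC box, was in 33.3% of the set and 45.9% of all, CCAAT in 26.7% and 31.9%, and TATAAA in 6.67% and 9.77%. TGACTCA, an AP-1 motif, was in 6.67% and 2.9%, the AP-2 letters GCCNNNGGC in 20% and 22%, CACGTG in 5% and 6.39%, and TGACGTCA in none of the set and 1.7%. The windows of the set held a median of 52.4% G and C and 4.5 CG dinucleotides, beside 57.6% and 12 over all promoters. All 14 motifs were searched on both strands, and the shares are a description with no test. Repeat sequences were not masked, so a motif inside a repeat was counted.

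Within 200 kb of the start of another gene of the set lay 6 of the 60 (10%), beside 2.49% of the 13147 positioned genes of the table. They formed 3 pairs. CIDEB, which encodes a lipid droplet protein, and LTB4R2, a leukotriene receptor gene, overlap in opposite directions on chromosome 7, with starts 0.87 kb apart. KLK9 and KLK11, serine protease genes of the kallikrein cluster on chromosome 6, have 1 protein-coding gene between them, and ENPP3, an ectoenzyme gene, and ARG1, the arginase of the urea cycle, lie on chromosome 1 with starts 96.4 kb apart. R3HDML, whose start lies 18.1 kb from that of HNF4A, missed the set by its mean of 15.1 in Epi-piPSC-FLB2i. The bodies of 16 of the 60 genes overlap another RefSeq gene, 14 of them on the opposite strand, and for these, HNF4A, CIDEB, HABP2 and A1CF among them, reads of the partner could not be told apart, since the sources used here name no strand option for the counting.

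In every one of the 84 genes, all 4 samples of pESCLC-primary and pESCLC-F lay above all 10 other samples, an order that the limits on the means nearly fix. The summed normalized count of the set was 41825 and 48547 in pESCLC-primary, 75313 and 62641 in pESCLC-F, and between 143 and 494 in the 10 other samples. It made up 0.238% and 0.269% of all counts in pESCLC-primary and 0.368% and 0.322% in pESCLC-F. The highest of the 10 others was the first Lv-piPSC-F sample.

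**Figure D1:**
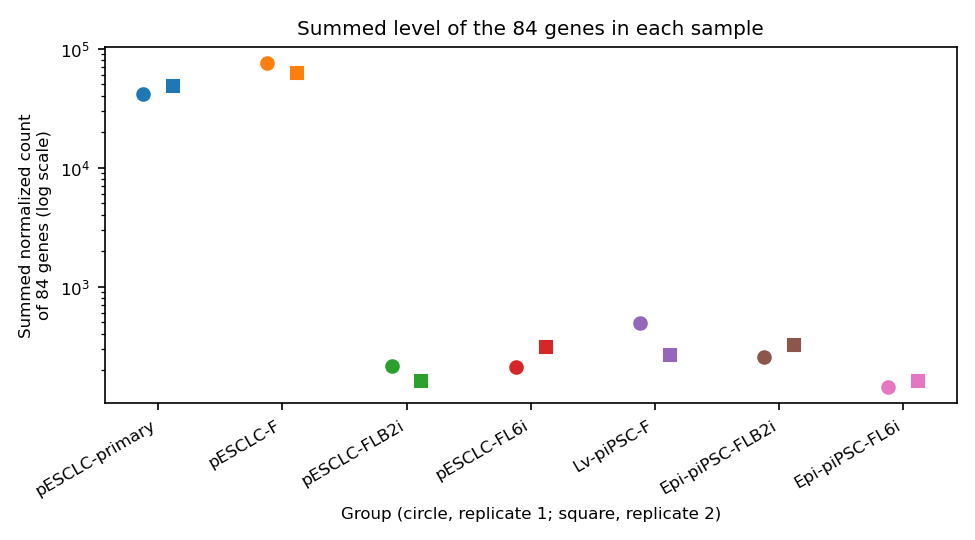
Summed normalized count of the 84 genes in each sample (log scale), by group, with a circle for replicate 1 and a square for replicate 2. The 4 samples of pESCLC-primary and pESCLC-F sit between 41825 and 75313, and the 10 other samples between 143 and 494.

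The remaining level in the 5 other groups was low but not absent. Only 3 of the 84 genes (MIXL1, SLC34A1 and 1 without a symbol) had no read in any of the 10 samples, 9 had none in at least 9 of them, and 38 had none in at least 5. No gene reached 40 normalized counts in any of these samples, and the highest single value was 25.8, for MNX1 in the second Epi-piPSC-FLB2i sample. Of the 5 groups, Lv-piPSC-F had the highest mean for 36 genes, Epi-piPSC-FLB2i for 21, pESCLC-FL6i for 16, pESCLC-FLB2i for 5 and Epi-piPSC-FL6i for 3, leaving out the 3 genes at 0. In the pESCLC-FL6i line the sum was 211 at passage 3 and 309 at passage 9, which stood for 201 and 118 reads, so the order of these values rests on few reads. In pESCLC-FLB2i it was 217 at passage 3 and 160 at passage 6.

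**Figure D2:**
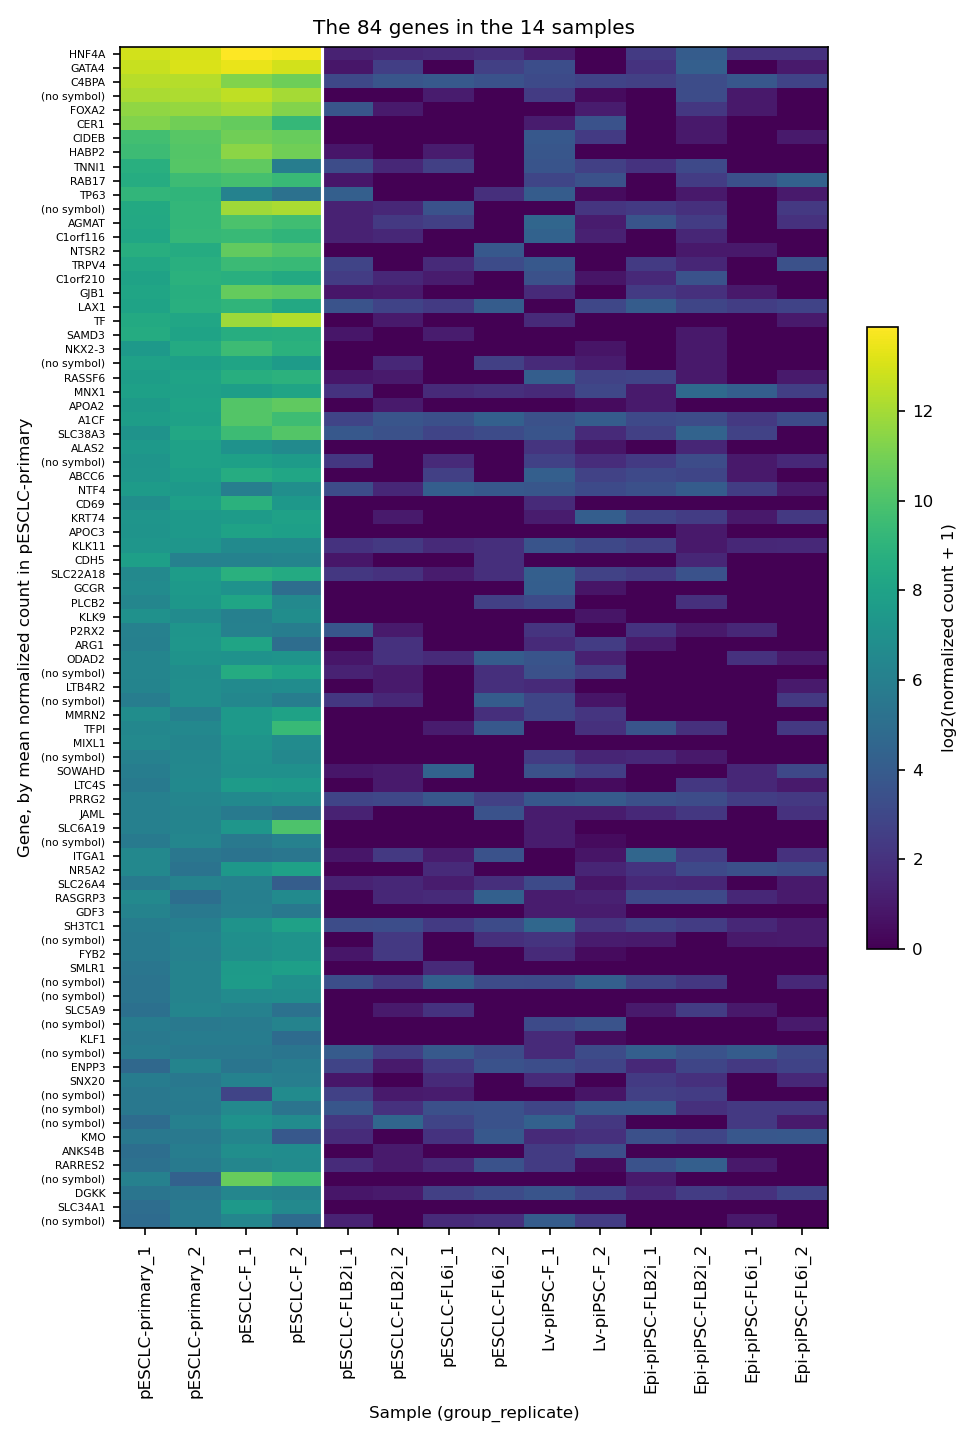
Level of each of the 84 genes (rows, by falling mean in pESCLC-primary) in each of the 14 samples (columns), as log2(normalized count + 1). The 4 columns left of the white line hold pESCLC-primary and pESCLC-F, where the highest value is 15090 (HNF4A), and the 10 columns to the right hold no value above 25.8.

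Genes lay close to both sides of each limit. Just inside the limit of 40 were SLC26A4 with a mean of 40.5 and ITGA1 with 40.6 in pESCLC-F, and SLC34A1 with 40.9 in pESCLC-primary. Just outside it were GDF15 with 39.8, NPC1L1 with 38.7 and PRLR with 38.1, all in pESCLC-primary. Just inside the limit of 15 were NTF4 with 14.9 in pESCLC-FL6i, RAB17 with 14.3 in Epi-piPSC-FL6i and RARRES2 with 13.9 in Epi-piPSC-FLB2i, and outside it, after R3HDML, were C6orf52 with 15.3 and KCNK6 with 15.5 in Lv-piPSC-F.

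HNF4A and GATA4 had the highest levels of the set in pESCLC-primary. HNF4A had 7811 and 8335 normalized counts in pESCLC-primary, 15090 and 13369 in pESCLC-F, and 0 to 15.7 with a median of 2.36 in the 10 others. GATA4 had 6692 and 8623 in pESCLC-primary, 10840 and 7680 in pESCLC-F, and 0 to 17.5 in the others. Both pESCLC-F samples lay above both outgrowths for HNF4A, whereas the values of GATA4 overlapped. FOXA2 had 3030 and 3287 in the outgrowths and 4081 and 2510 in pESCLC-F, also overlapping, and 0 to 11.5 in the others. MIXL1, a homeobox gene of the primitive streak and mesendoderm, had 92.5 and 77.6 in the outgrowths and 145 and 103 in pESCLC-F. NKX2-3, a homeobox gene of gut and spleen mesoderm, had 183 and 352 beside 736 and 465, and NR5A2, a nuclear receptor of early embryo, liver and pancreas, had 88.5 and 38.3 beside 171 and 245. For these 3 genes both pESCLC-F samples were above both outgrowths, yet none of them passed the test below. MNX1, a homeobox gene of motor neurons and pancreas, had 233 and 243 beside 220 and 274, and KLF1, an erythroid factor, had 48.2 and 55.7 beside 56.5 and 28.3. Thus neither of these separated the groups.

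Per kb of the longest RefSeq transcript, the order of mean levels in pESCLC-primary was HNF4A with 1721 normalized counts per kb, GATA4 with 1427, FOXA2 with 1317, CIDEB with 756 and CER1 with 729. In pESCLC-F it was HNF4A with 3033, APOA2 with 2752, GATA4 with 1725, FOXA2 with 1374 and CIDEB with 1244. APOA2, whose transcript is short, had 482 per kb in pESCLC-primary. The transcripts used in these cells are not known. The 24 genes without a single RefSeq entry by symbol have no place in this order, among them C4BPA, TF and ENSSSCG00000006256. The last of these, which has no symbol and is given for its level, had 4444 and 4668 normalized counts in the outgrowths, 6032 and 4070 in pESCLC-F, and 0 to 8.3 in the 10 others, so the groups overlapped.

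The change from outgrowths to the passaged cells was tested with limma on log2(normalized count + 1), over 13977 genes. The limits were alike for both groups, so the rule did not fix the direction of this change, although the limit of 40 in pESCLC-F bounds how far a gene can fall. The limit of 40 in pESCLC-primary likewise leaves out genes that rose from lower levels, such as AFP, described below. All 84 genes passed the filter of at least 10 normalized counts in 2 of the 4 samples. At an adjusted p of at most 0.05, 9 of the 84 (10.7%) were higher in pESCLC-F, beside 1.44% of all genes tested, and 2 (2.38%) were lower, beside 1.75%. Among the 11299 genes with a mean of at least 40 in both groups, 1.58% were higher and 0.823% lower. In 42 of the 84 (50%) both pESCLC-F samples lay above both outgrowths, beside 28.2% of all genes and 31.1% of those at 40 or more, in 9 (10.7%) both lay below, beside 24.4% and 20.6%, and in the other 33 the groups overlapped. The log2 fold change was above 0 for 60 of the 84 (71.4%), beside 52.1% of all genes and 56.6% of those at 40 or more, with a median of 0.50 for the set and 0.02 for all genes. DESeq2 on the recovered reads called 25 of the 84 higher (29.8%), beside 4.9% of all genes, and 2 lower (2.38%), beside 4.28%. edgeR called 9 higher (10.7%), beside 1.38%, and 2 lower (2.38%), beside 1.83%. At an unadjusted p under 0.05 with limma, 35 of the 84 were higher (41.7%), beside 1556 of all 13977 genes, and 5 lower (5.95%), beside 1314. The counts of subgroups and lists given further on stand beside these same shares of all genes.

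**Figure D3:**
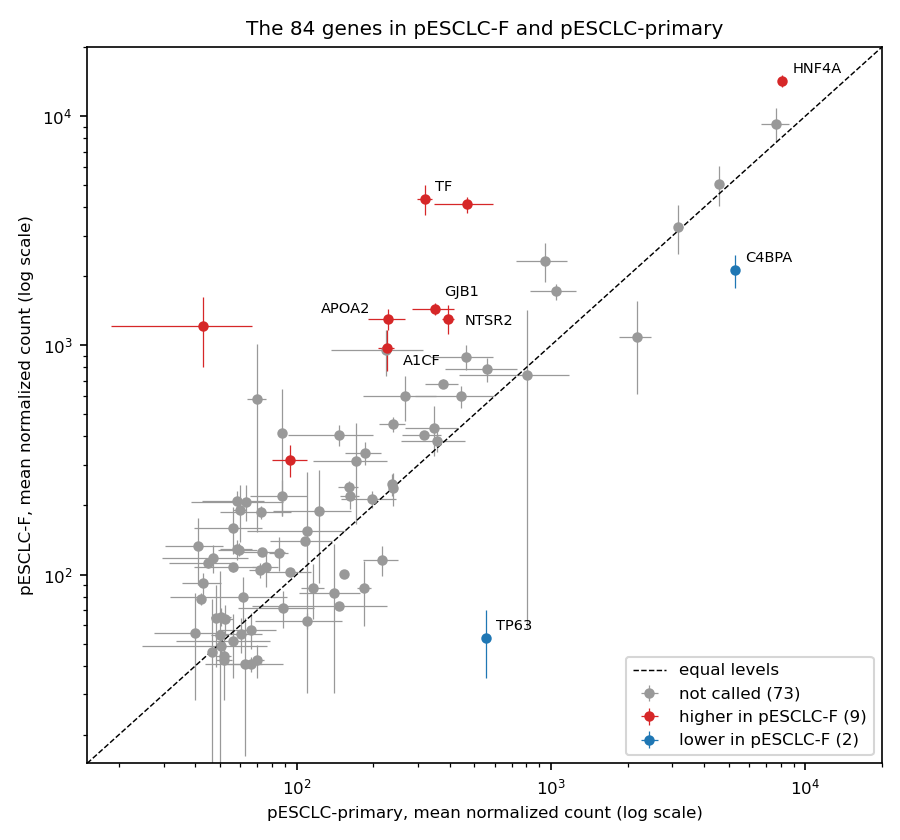
Mean normalized count of each of the 84 genes in pESCLC-primary (horizontal) and pESCLC-F (vertical), both on log scales, with bars from the lower to the higher of the 2 samples. The 9 genes called higher in pESCLC-F (red) include TF and APOA2, the 2 called lower (blue) are TP63 and C4BPA, and unnamed red points have no symbol.

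Of the 6 genes with a symbol that rose, TF and APOA2 encode secreted proteins and GJB1 and NTSR2 membrane proteins. TF, which encodes the iron carrier transferrin, had 340 and 298 normalized counts in the outgrowths, 3695 and 4995 in pESCLC-F, and 0 to 2.2 in the 10 others. Both pESCLC-F samples were above the outgrowths, and the log2 fold change was 3.75 with a standard error of 0.18 (limma adjusted p = 0.00405). APOA2, an apolipoprotein of high-density lipoprotein, had 190 and 267 in the outgrowths and 1165 and 1444 in pESCLC-F, and it was at 0 reads in 7 of the 10 others. The groups did not overlap, with a log2 fold change of 2.52 ± 0.22 (SE, limma adjusted p = 0.00934). APOC3, an apolipoprotein that slows the clearance of triglyceride-rich particles, had 146 and 175 beside 256 and 226, again without overlap. Its log2 fold change of 0.59 ± 0.24 did not pass the test (limma adjusted p = 0.234), and it was at 0 reads in 9 of the 10 others. HABP2 had 726 and 1160 beside 2789 and 1894, with a log2 fold change of 1.32 ± 0.28 (limma adjusted p = 0.0634). TFPI, an inhibitor of the tissue factor pathway of coagulation, had 86.6 and 88.5 beside 180 and 646, and its wide spread left it outside the threshold (limma adjusted p = 0.125).

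A1CF, which encodes the RNA-binding partner of the enzyme that edits apolipoprotein B mRNA, had 210 and 242 normalized counts in the outgrowths and 1170 and 772 in pESCLC-F. It rose by 2.07 ± 0.24 (log2, SE, limma adjusted p = 0.0174), and without the first outgrowth its adjusted p was 0.051. GJB1, the gap junction protein connexin of liver and Schwann cells, had 285 and 416 beside 1529 and 1359, and rose by 2.06 ± 0.21 (limma adjusted p = 0.0129). NTSR2, a neurotensin receptor, had 415 and 374 beside 1501 and 1115, and rose by 1.71 ± 0.19 (limma adjusted p = 0.0151). In each of these 3 genes the groups did not overlap. HNF4A rose by 0.82 ± 0.13 (limma adjusted p = 0.0345). Its call was lost when the first outgrowth, the second outgrowth or the first pESCLC-F sample was left out, with adjusted p of 0.129, 0.0571 and 0.0688, and also with no filter on low values (limma adjusted p = 0.0621). In one limma fit on all 14 samples, which takes the spread from all 7 groups, TF was called (adjusted p = 0.0244), whereas the calls of APOA2 (adjusted p = 0.0737), A1CF (0.129), GJB1 (0.207), NTSR2 (0.697) and HNF4A (0.814) were lost. Of the 18 genes without a symbol 3 rose, led by ENSSSCG00000002476, with 66.9 and 18.6 in the outgrowths and 1630 and 801 in pESCLC-F, and ENSSSCG00000004252, with 347 and 590 beside 3786 and 4449. Their log2 fold changes were 4.97 ± 0.62 (limma adjusted p = 0.0204) and 3.18 ± 0.26 (limma adjusted p = 0.00759).

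TP63 and C4BPA fell. TP63, a transcription factor of stratified and other epithelia, had 569 and 540 normalized counts in the outgrowths and 70.1 and 35.4 in pESCLC-F, and 0 to 17.7 in the 10 others. With no overlap, it fell by 3.45 on the log2 scale with a standard error of 0.36 (limma adjusted p = 0.0129). C4BPA, a subunit of the complement regulator C4b-binding protein, had 5436 and 5129 in the outgrowths and 2479 and 1778 in pESCLC-F. It fell by 1.33 on the log2 scale with a standard error of 0.18 (limma adjusted p = 0.0237), and its adjusted p was 0.0823 without the first outgrowth. In the fit on 14 samples neither fall passed (limma adjusted p = 0.428 for TP63 and 0.314 for C4BPA). The spread of the low values in the 10 other samples entered this fit too. CER1, a secreted inhibitor of NODAL, BMP and WNT ligands made by anterior visceral endoderm, had 2481 and 1855 beside 1565 and 611. Both pESCLC-F samples were below the outgrowths, but the log2 fold change of -1.13 ± 0.42 passed the test only without the first pESCLC-F sample (limma adjusted p = 0.198 with all 4 samples and 0.00966 without it). GDF3, a ligand of the TGFB family, had 72.8 and 48.1 beside 64.9 and 45.5, and the groups overlapped.

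Replicates of 1 group differed strongly for some genes. TNNI1, the troponin inhibitory subunit of slow skeletal muscle, had 436 and 1178 normalized counts in the outgrowths and 1418 and 58.7 in pESCLC-F, so its log2 fold change was -1.30 ± 1.36 (limma adjusted p = 0.647). It was -3.59 without the first pESCLC-F sample, where it passed (limma adjusted p = 0.021), and 0.98 without the second. SLC6A19, the neutral amino acid transporter of gut and kidney brush border, had 63.9 and 75.4 beside 154 and 1013, and its log2 fold change was 2.49 ± 0.80 (limma adjusted p = 0.155). It was 3.85 without the first pESCLC-F sample (limma adjusted p = 0.00335). CDH5, the cadherin of endothelium, had 227 in the first outgrowth and 66.7 to 74.8 in the other 3 samples. Over the set, 64 of 84 genes were higher in the second outgrowth than in the first, with a median ratio of 1.34, and 53 were higher in the first pESCLC-F sample than in the second, with a median ratio of 1.19.

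The transporter, channel and gap junction genes had the highest median log2 fold change of the groups of named genes, 1.22 over 10 genes, though only GJB1 among them passed. At an unadjusted p under 0.05 (limma) 7 of the 10 were higher and 0 lower, and DESeq2 called 5 higher. The grouping by role was made after values were seen, so this order is a description only. SLC38A3, a glutamine transporter, had 137 and 314 in the outgrowths and 738 and 1161 in pESCLC-F (limma adjusted p = 0.0533). SLC34A1, a sodium-phosphate transporter of kidney, had 30.5 and 51.4 beside 177 and 90, and ABCC6, an efflux transporter of liver, had 155 and 215 beside 379 and 299. In all 3 both pESCLC-F samples were above both outgrowths. TRPV4, a cation channel, had 319 and 432 beside 711 and 650 (limma adjusted p = 0.0786). SLC26A4, the anion exchanger pendrin, had 52.1 and 73.2 beside 64.9 and 16.2, and SLC5A9, a sugar transporter, had 33.4 and 78.7 beside 67 and 35.4. These 2 overlapped between the groups.

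Of 8 enzyme and RNA-editing genes, A1CF alone passed. At an unadjusted p under 0.05 (limma) 4 of the 8 were higher and 1 lower, and DESeq2 called 3 higher. AGMAT, an enzyme of the agmatinase family, had 333 and 592 in the outgrowths and 1003 and 780 in pESCLC-F (limma adjusted p = 0.13 with all samples and 0.0444 without the second outgrowth). ALAS2, the erythroid enzyme that begins haem synthesis, had 183 and 249 beside 133 and 98.1, lower in both pESCLC-F samples (limma adjusted p = 0.162). ARG1 had 63.9 and 155 beside 279 and 30.3, and LTC4S, which makes leukotriene C4, had 50.2 and 95.1 beside 199 and 174. Only in LTC4S, of this pair, did the groups not overlap. Of the 17 other intracellular proteins none passed with limma or edgeR, 6 were higher at an unadjusted p under 0.05 and 4 with DESeq2, and 16 had a log2 fold change above 0. CIDEB had 830 and 1258 beside 1856 and 1583 (limma adjusted p = 0.127), RAB17, a small GTPase of epithelial traffic, had 382 and 737 beside 881 and 689, and C1orf116 had 293 and 596 beside 664 and 532. Among the 9 receptors and surface proteins NTSR2 alone passed, and ITGA1, a collagen-binding integrin subunit, had 88.5 and 43.7 beside 37.7 and 43.5. The 18 genes without a symbol had a median log2 fold change of 0.32.

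**Figure D4:**
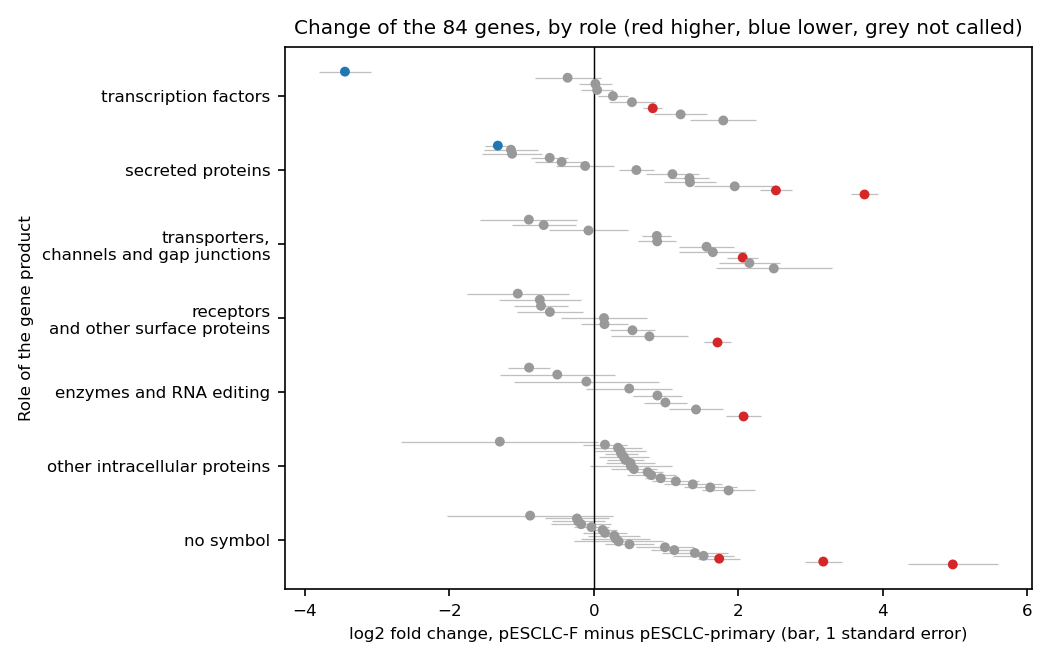
log2 fold change of each of the 84 genes, pESCLC-F minus pESCLC-primary, with a bar of 1 standard error on each side, by the role of the product. Red points are the 9 genes called higher in pESCLC-F and blue points the 2 called lower, and 16 of the 17 other intracellular proteins lie right of 0 without a call.

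None of the further secreted and surface proteins described next passed the test. MMRN2, a matrix protein of endothelium, had 110 and 65.6 normalized counts in the outgrowths and 180 and 258 in pESCLC-F, and RARRES2, the chemoattractant chemerin, had 35.4 and 50.3 beside 81.6 and 101. KLK11 had 153 and 154 beside 100 and 100, and KLK9 had 128 and 104 beside 63.8 and 111. NTF4, a neurotrophin, had 197 and 173 beside 59.7 and 114. Hence MMRN2 and RARRES2 lay higher in both pESCLC-F samples, KLK11 and NTF4 lower in both, and KLK9 overlapped. CD69, an activation antigen of lymphocytes, had 116.1 and 226 beside 459 and 167, and it was at 0 reads in 9 of the 10 other samples. GCGR, the glucagon receptor, had 102 and 178 beside 136 and 30.3, with 0 reads in 8 of the others. JAML, a junctional adhesion protein of leukocytes, had 65.9 and 74.3 beside 49.2 and 35.4. CD69 and GCGR overlapped between the groups and JAML did not.

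Among the intracellular and small membrane proteins, several missed the threshold of 0.05. SMLR1, a small membrane protein gene, had 42.3 and 74.3 normalized counts in the outgrowths and 185 and 232 in pESCLC-F, with 0 reads in 9 of the 10 others (limma adjusted p = 0.0541). SH3TC1 had 56.1 and 63.4 beside 138 and 246 (limma adjusted p = 0.075), and RASSF6, of the RAS association family, had 211 and 266 beside 419 and 487 (limma adjusted p = 0.0777). In these 3 genes the groups did not overlap. SAMD3 had 371 and 260 beside 400 and 410, and was at 0 reads in 7 of the others, where its highest value was 1.05. KMO, the kynurenine 3-monooxygenase of tryptophan breakdown, had 45.2 and 48.1 beside 78.5 and 13.1, and its lower pESCLC-F value of 13.1 was just above its highest value elsewhere, also 13.1, in the second pESCLC-FL6i sample.

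Genes of the same lineages were then described from lists of markers. Of 39 primitive and visceral endoderm genes in the table, 7 belonged to the set (GATA4, FOXA2, HNF4A, CER1, APOA2, APOC3 and TF), and 29 had a mean of at least 40 in both high groups. The other 22 of these 29 failed the limit of 15, since at least 1 other group had a mean of 15 or more. GATA6, for example, had 2740 and 2561 normalized counts in the outgrowths and 3319 and 2674 in pESCLC-F, beside a mean of 984 for Lv-piPSC-F and of 528 for Epi-piPSC-FL6i. The summed count of the list was 165933 and 223883 in pESCLC-primary, 400174 and 332671 in pESCLC-F, and 16622 to 66199 in the 10 others. Its most abundant gene in the high groups was APOA1, the main protein of high-density lipoprotein, which reached 193978 in the first pESCLC-F sample. In pESCLC-F against pESCLC-primary, 11 of the 37 endoderm genes tested were higher and none lower (limma), with a median log2 fold change of 0.82, and 8 of these 11 were outside the set. At an unadjusted p under 0.05, 23 were higher and 1 lower, and DESeq2 called 20 higher and edgeR 11, both with none lower. FGB, the fibrinogen beta chain, had 113 and 77.6 beside 1056 and 844, and LRP2, the endocytic receptor megalin, had 2503 and 2395 beside 6949 and 6804. AFP, alpha-fetoprotein, had no read in the outgrowths, 126 and 929 in pESCLC-F, and none in the 10 others, and missed the set only because of the outgrowths. ALB, the albumin of fetal and adult liver, had between 4.05 and 17.7 in the 4 samples.

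**Figure D5:**
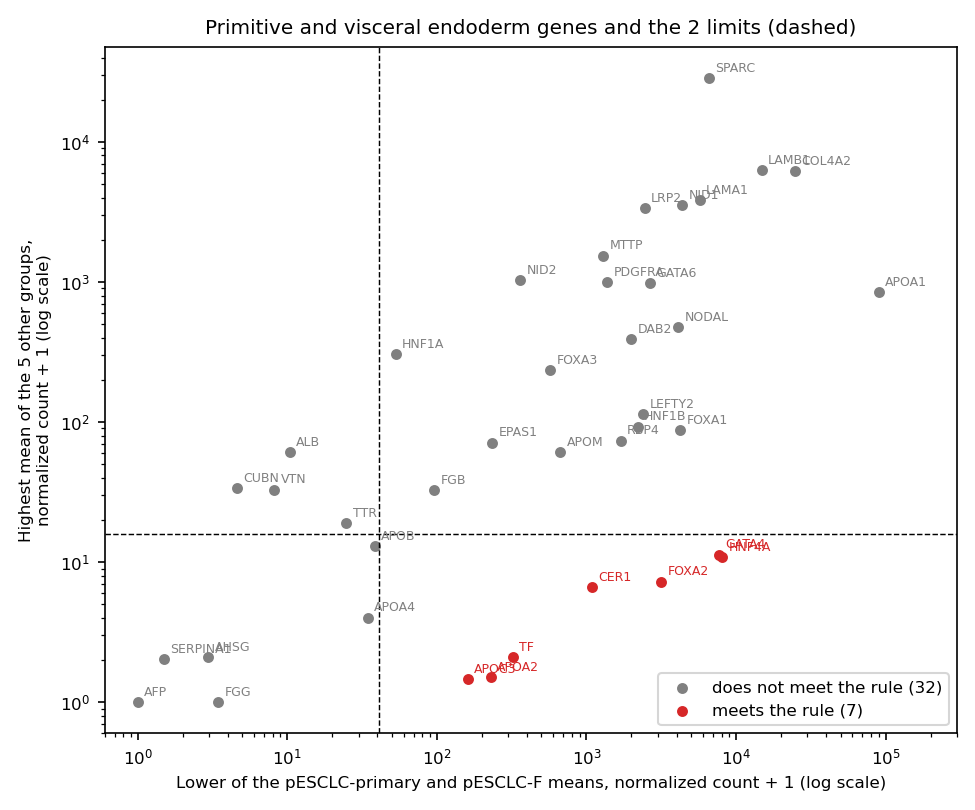
Each endoderm gene of the list by the lower of its pESCLC-primary and pESCLC-F means (horizontal) and its highest mean in the 5 other groups (vertical), as normalized count + 1 on log scales, with the limits of 40 and 15 dashed. The 7 genes of the set (red) fill the lower right corner, and 22 others with at least 40 in both groups lie above the limit of 15.

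No trophectoderm gene belonged to the set, although the summed count of the 25 found was also high in the same samples, with 351413 and 408999 in pESCLC-primary, 474233 and 492008 in pESCLC-F, and 1943 to 97164 in the others. KRT8 and KRT18, keratins of simple epithelia that endoderm also makes, led this sum. Of the 25, 10 had a mean of at least 40 in both high groups, and all 10 had a mean of at least 15 in another group. Of 21 trophectoderm genes tested, 6 were lower in pESCLC-F and none higher (11 and 2 at an unadjusted p under 0.05, 9 and 0 with DESeq2, 6 and 0 with edgeR). TFAP2C, a placental transcription factor and 1 of the 6, had 193 and 142 in the outgrowths and 0 and 2.02 in pESCLC-F. PPARG and HSD17B1 went the other way at an unadjusted p under 0.05 (limma), with log2 fold changes of 2.03 and 0.589. Neither passed after adjustment. CYP17A1 had at most 2.95 in the 4 samples, and IFNG was at 0 reads in all 4. Of 26 mesoderm genes MIXL1 belonged to the set, and of 23 tested 1 was higher and 6 lower (1 and 13 at an unadjusted p under 0.05, 1 and 9 with DESeq2, 1 and 6 with edgeR). Of 15 endothelial and blood genes CDH5 belonged to it, with no call among 9 tested (3 at an unadjusted p under 0.05, 1 with DESeq2, 0 with edgeR), and HBB was at 0 reads in the 4 samples. The part of a change in the makeup of the cultures in the rise and fall of the set was not tested.

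Of 56 genes for plasma proteins and lipid transport, APOA2, APOC3, TF and C4BPA belonged to the set. In pESCLC-F, 13 of 44 tested were higher and 2 lower (29 and 3 at an unadjusted p under 0.05, 24 and 2 with DESeq2, 14 and 2 with edgeR), with a median log2 fold change of 1.68, and 11 of the 13 were outside the set. FETUB, a fetuin of plasma, had 31.5 and 3.28 in the outgrowths and 1677 and 1185 in pESCLC-F, and F2, prothrombin, had 118 and 259 beside 1495 and 1045. Of 24 transporter and uptake genes tested 5 were higher and none lower (12 and 2 at an unadjusted p under 0.05, 6 and 0 with DESeq2, 5 and 0 with edgeR), and all 5 were outside the set. SLC34A2, a phosphate transporter, had 2101 and 3450 beside 11933 and 9298. In the TGFB and BMP pathway, with CER1 and GDF3 in the set, 1 of 54 was higher and 3 lower (14 and 14 at an unadjusted p under 0.05, 8 and 10 with DESeq2, 1 and 3 with edgeR). In the WNT, FGF, Notch and JAK-STAT pathways, with no gene in the set, 2 of 59 were higher and 8 lower (5 and 21 unadjusted, 3 and 18 with DESeq2, 2 and 8 with edgeR). Of 58 extracellular matrix genes 3 were higher and 9 lower (11 and 19 unadjusted, 9 and 13 with DESeq2, 3 and 9 with edgeR), and ITGA1 belonged to the set. Of 21 genes of steroid, retinoid and prostaglandin synthesis 2 were higher and 4 lower, with none in the set (5 and 8 unadjusted, 2 and 6 with DESeq2, 2 and 4 with edgeR), and of 27 junction and keratin genes 1 was higher and none lower (7 and 4 at an unadjusted p under 0.05, 3 and 2 with DESeq2, 0 and 0 with edgeR). No call was made by limma, DESeq2 or edgeR among the 6 pluripotency and 4 neural genes tested, of which 2 and 2 had an unadjusted p under 0.05. Of 16 fibroblast and smooth muscle genes 2 were lower and none higher (4 and 1 at an unadjusted p under 0.05, 3 and 0 with DESeq2, 2 and 0 with edgeR).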

How the data were processed

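The authors prepared stranded mRNA libraries, aligned paired-end reads to Sscrofa11.1 with TopHat2 2.1.0, counted them on genes with HTSeq at default settings and normalized with DESeq2. The deposited table gives these normalized counts per gene as signal values of the authors. The annotation release is not given in the sources used here. By default HTSeq expects the first read of a pair on the strand of the gene, whereas TruSeq stranded libraries, used here, place it on the opposite strand; no strand option is named. In every sample 100% of values were whole multiples of 1 read (tolerance 1e-06 reads), which gave reads back. Chi-square per degree of freedom between replicates was 8.69 to 226, more than sampling noise gives, so each sample was counted on its own. Reads of mouse feeder cells aligning to pig genes were not tested.

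Samples were grouped by their labels. Symbols came from a table of Ensembl identifiers, which matched 14151 of 19588 genes. limma 3.58.1 (R 4.3.3, with trend) was run on log2(normalized count + 1) of the 4 samples of pESCLC-primary and pESCLC-F, two-sided, with Benjamini-Hochberg adjustment over genes with at least 10 normalized counts in 2 samples. The pseudocount understates changes of low genes. DESeq2 1.42.0 and edgeR 4.0.16 were run on recovered reads as alternatives, with others named in the closing section. The rule named the 12 genes with a symbol that were highest in pESCLC-primary, those on a list, the called genes with the largest changes and those next to each limit; other names and the grouping by role were chosen after values were seen. The set and the lists were chosen with earlier results of these data known. Promoter sequences and positions are those of RefSeq on Sscrofa11.1, matched by symbol. Counting error limits values of a few reads. Tools were Python 3.11.15 and matplotlib 3.10.9.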

Additional observations from a re-analysis of the deposited data

How the results depend on the processing

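The set itself depends on its limits. It held 131 genes with a limit of 20 in the high groups, 46 with 80, 32 with 5 in the low groups, 146 with 30, and 43 with each sample past the limit; leaving out 1 sample gave 76 to 105, the latter without the first Lv-piPSC-F sample. In pESCLC-F against pESCLC-primary the main test called 446 genes, 158 without a filter on low values, 284 with a fold change of at least 3, 160 with a log2 fold change of at least 3, 187 in one fit on all 14 samples, 1296 with DESeq2, and 100 (without the first outgrowth) to 513 with 1 sample left out. Genes of the set called higher numbered 3 with a log2 fold change of at least 3, 2 in one fit on 14 samples and 25 with DESeq2, and 6 (without the first outgrowth) to 13 with 1 sample left out. Genes called lower numbered 1 with either fold limit, 0 in one fit on 14 samples (2 there at an unadjusted p under 0.05, and 2 with limma on 4 samples, edgeR and DESeq2), and 1 (without the first outgrowth) to 4 (without the first pESCLC-F sample). For genes of the set, the fit on 14 samples has the limit given above, that their low values elsewhere enter its spread. A window of 500 kb gave 10 genes near another in place of 6. Of 335 values over 24 named genes, 306 kept their direction and side of the threshold, 13 lost and 9 gained a call, and 7 turned in sign. With 1 sample left out the log2 fold change was -0.33 to 0.37 for FOXA2 (-0.04 without the first outgrowth, lowest without the first pESCLC-F sample), -3.59 to 0.98 for TNNI1 (highest without the second pESCLC-F sample), -0.0037 to 1.02 for C1orf116 (lowest without the first outgrowth), -1.63 to 0.13 for CDH5 (highest without the first outgrowth), and -0.41 to 0.17 for GDF3 (0.17 without the first outgrowth, 0.13 without the second pESCLC-F sample). TF was called in all 14 alternatives (adjusted p 1.16e-63 to 0.0244). The causes were not tested.

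The replicate numbers did not pair the samples of pESCLC-primary and pESCLC-F: the correlation of deviations of same-numbered samples was -0.045 between both groups. Over 21 pairs of groups it was -0.075 to 0.36, with 1 pair over 0.1. With the replicate block 551 genes were called, 11 of the set higher and 2 lower.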
